A study of Mus musculus with 12 samples.

Results

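The genes described here are the named small nucleolar RNAs (snoRNAs) of both box classes, C/D (symbols that start with Snord) and H/ACA (symbols that start with Snora), in activated mouse CD4 T cells with and without the cap methyltransferase Rnmt. They were chosen as genes of GENCODE biotype snoRNA with such a symbol, leaving out Snord118 and Snord13, that had a CPM (counts scaled to library size) above 1 in at least 3 total RNA or 3 ribosome protected fragment (RPF) libraries. Of 138 named genes (96 C/D and 42 H/ACA) among 1507 snoRNA genes and 49585 genes in all, 60 passed, of which 41 were C/D and 19 H/ACA. Control cells came from female Rnmt fl/fl mice without Cre, and Rnmt cKO cells from female Rnmt fl/fl mice with a CD4-Cre transgene, which is active from thymic development on in T cells and removes exon 3 of Rnmt; both genotypes were C57B6/J and carried the floxed allele, and age was not given in the sources used here. Naive CD4 T cells from lymph nodes were isolated with a kit, activated for 20 h on plates that carried antibodies to CD3 (5 ug/ml) and CD28 (1 ug/ml), and given 0.1 mg/ml cycloheximide for 1 min before lysis. Total cytoplasmic RNA and RPFs were each sequenced from 3 control and 3 Rnmt cKO samples, with 15079703 to 22629563 counts on genes per total RNA library and 4123271 to 10661356 per RPF library.

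snoRNAs are short noncoding RNAs of the nucleolus that pair with pre-ribosomal RNA. C/D snoRNAs guide methylation of ribose through the methyltransferase fibrillarin, and H/ACA snoRNAs guide the conversion of uridine to pseudouridine through dyskerin, while a few members, Snora73 (U17) among them, act in the cleavage of the precursor instead. In mammals most are trimmed from the introns of host genes, many of which encode ribosomal or nucleolar proteins or are noncoding, and such snoRNAs carry no m7G cap of their own. Activated T cells build ribosomes at a high rate, which makes these RNAs part of the growth program of these cells. They encode no protein, and counts in the RPF libraries are fragments recovered with ribosomes or of similar size, not footprints of translation.

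The sequences below are of the members on which the results turn, 5′ to 3′ on the strand of the RNA, from the GENCODE vM21 transcripts (GRCm38). In the C/D snoRNAs capitals mark TGATGA (the box C core) in the first 25 bases and CTGA (box D) in the last 15. In the H/ACA snoRNAs capitals mark ACA placed 3 bases before the end. Snord104 and Snord17 had large falls in total RNA, Snord49a and Snord49b share a noncoding host, Snord8 had the largest rise of the RPF to total RNA ratio among C/D members, and Snord69 was the most abundant C/D member over the 6 RPF libraries.
Snord104: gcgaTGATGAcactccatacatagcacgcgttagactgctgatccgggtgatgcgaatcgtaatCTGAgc
Snord17: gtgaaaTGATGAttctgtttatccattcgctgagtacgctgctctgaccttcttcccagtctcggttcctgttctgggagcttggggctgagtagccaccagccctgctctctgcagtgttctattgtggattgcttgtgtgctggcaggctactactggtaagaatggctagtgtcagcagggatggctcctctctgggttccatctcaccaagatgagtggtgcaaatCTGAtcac
Snord49a: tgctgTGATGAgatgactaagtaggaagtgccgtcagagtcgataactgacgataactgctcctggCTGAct
Snord49b: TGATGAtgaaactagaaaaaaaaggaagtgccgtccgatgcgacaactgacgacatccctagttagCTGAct
Snord8: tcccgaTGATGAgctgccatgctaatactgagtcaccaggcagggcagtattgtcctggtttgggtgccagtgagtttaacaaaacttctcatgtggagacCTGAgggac
Snord69: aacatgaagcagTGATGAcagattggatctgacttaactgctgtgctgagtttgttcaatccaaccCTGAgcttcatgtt
The H/ACA members shown are the 3 with the largest falls in total RNA, both Snora73 copies and Snora57.
Snora73b: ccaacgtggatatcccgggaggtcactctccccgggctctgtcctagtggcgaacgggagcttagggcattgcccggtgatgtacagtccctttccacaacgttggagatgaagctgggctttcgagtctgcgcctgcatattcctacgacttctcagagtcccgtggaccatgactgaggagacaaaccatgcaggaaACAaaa
Snora73a: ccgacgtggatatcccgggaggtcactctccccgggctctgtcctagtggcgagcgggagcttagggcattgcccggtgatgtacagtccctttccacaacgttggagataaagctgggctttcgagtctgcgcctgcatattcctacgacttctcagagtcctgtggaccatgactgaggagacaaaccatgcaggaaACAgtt
Snora57: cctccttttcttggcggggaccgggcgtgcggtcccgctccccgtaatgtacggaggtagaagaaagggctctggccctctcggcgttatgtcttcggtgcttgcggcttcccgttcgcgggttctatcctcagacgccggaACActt

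Snord104 lies at chr11:106500993-106501062 with no annotated gene around it on its strand, Snord17 at chr2:144265979-144266216 inside Snx5 and clear of its exons, Snord49b at chr11:62603079-62603150 and Snord49a at chr11:62603450-62603521 inside 2410006H16Rik, Snord8 at chr14:52209785-52209894 inside Chd8, and Snord69 at chr14:31014287-31014366 inside Gnl3 and wholly within an exon of the comprehensive annotation. Snora73b lies at chr4:132352322-132352526 and Snora73a at chr4:132352775-132352979, both inside the spans of Rcc1 and of the noncoding gene Snhg3, and Snora57 at chr19:8888538-8888685 with no annotated gene around it on its strand and a copy of 96.0% identity elsewhere. The box motifs, searched on the RNA strand alone, separated the classes. TGATGA in the first 25 bases was present in 27 of 41 C/D members and 0 of 19 H/ACA members, and CTGA in the last 15 bases in 36 and 1. ACA 3 bases from the end was present in 16 of 19 H/ACA members and 0 of 41 C/D members, and the same motifs were found in 18.9, 27.8 and 17.6% of 1369 other snoRNA genes. C/D members had a median length of 78 bases (64 to 238) and H/ACA members of 132 bases (127 to 205).

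Of the 138 named genes, 71 had no count in any library, and 51 of these 71 lay wholly inside an exon of another gene on the same strand in the comprehensive GENCODE vM21 annotation, where a read overlaps more than 1 gene. The counts were made on the basic gene models, and the part of such overlaps in the missing counts was not tested. Another 17 were near-identical copies of Snord116 (Snord116l genes), for which reads with several alignments were not counted, and 3 were neither. Whether the Snord116 copies had such reads or were not expressed was not tested. Of the 67 named genes with any count, 6 lay wholly inside such an exon. A count of 0 does not show that the snoRNA was absent from the cells. The 60 members comprised 47 that passed the filter in total RNA (28 C/D and 19 H/ACA) and 56 that passed in RPF (39 and 17), with 43 in both. The 13 members that passed only in RPF were all C/D. One member, Snord58b, passed in total RNA only through the Rnmt cKO libraries.

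Rnmt itself, the targeted gene, had 95.5, 94.1 and 94.3 CPM in control and 29.3, 32.4 and 30.4 CPM in Rnmt cKO total RNA, with no overlap (log2 fold change −1.62, SE 0.06). Of 7 CD4 T cell markers, Cd4, Cd3e and Cd28 did not pass in total RNA, with 271.0 to 350.1 CPM for Cd4, and the other 4 fell, Cd3g with a log2 fold change of −1.23, Cd3d −0.74, Cd5 −0.65 and Trbc2 −0.27. Markers of B cells were low but moved with genotype. Ms4a1 had 3.13, 1.69 and 13.3 CPM in control and 33.7, 41.1 and 7.60 CPM in Rnmt cKO total RNA, and Cd79b had 1.80, 1.80 and 3.99 CPM in control and 10.7, 14.4 and 4.02 CPM in Rnmt cKO total RNA. Both rose (log2 fold change 2.18, SE 0.78 and 1.92, SE 0.50), with overlap between genotypes for Ms4a1, while Cd79a had at most 2.17 CPM in any total RNA library. Of 3 NK cell markers only Klrk1 could be tested, and it rose (log2 fold change 1.00, SE 0.35), with a sum over the 3 of 0.69, 1.85 and 1.08 CPM in control and 3.53, 2.94 and 2.85 CPM in Rnmt cKO total RNA. The 4 myeloid markers together had less than 1 CPM in every total RNA library, and the part of B, NK and myeloid cells in the results below was not tested. In bulk RNA, a lower level per cell and fewer cells that hold the RNA cannot be told apart. CPM are shares of each library, and fold changes compare such shares, not amounts per cell. The paper reports less mRNA per cell in activated Rnmt cKO cells. It states that RNA sequencing therefore understates falls of single genes and overstates rises.

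In total RNA, 22 of the 47 named snoRNAs tested were decreased in Rnmt cKO cells and 1 was increased. Of 19 H/ACA members 12 were decreased and 0 increased, and of 28 C/D members 10 were decreased and 1 increased, by the quasi-likelihood test of edgeR (p adjusted by Benjamini-Hochberg over all genes). Over all 11519 genes tested 28.0% were decreased and 26.3% increased. The median log2 fold change was −0.58 for H/ACA and −0.35 for C/D members, beside −0.0037 for all genes. With no filter on low counts it was −0.59 over 19 H/ACA and −0.11 over 41 C/D members. At an unadjusted p under 0.05, 13 H/ACA members were lower and 0 higher and 13 C/D members lower and 1 higher, beside 3553 genes lower and 3412 higher. DESeq2 called 12 H/ACA members lower and 0 higher, and 9 C/D members lower and 0 higher, beside 2844 genes lower and 2981 higher. The difference between the classes was not tested, because members are not replicates. The 2-fold falls past the threshold numbered 5 in H/ACA and 3 in C/D members, beside 570 of the 11519 genes.

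**Figure D1:**
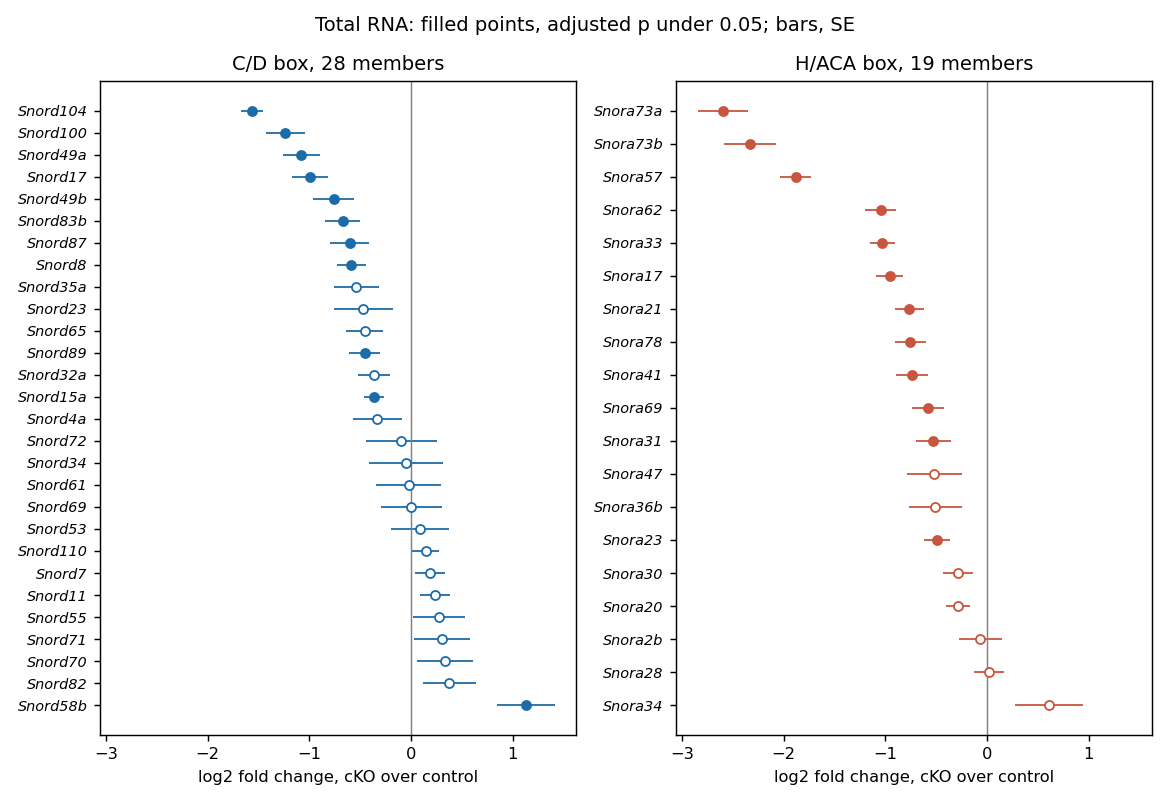
Log2 fold change of Rnmt cKO over control in total RNA (x axis) for each member tested (y axis), C/D on the left and H/ACA on the right, with bars for the SE and filled points for an adjusted p under 0.05. The 3 lowest values are those of Snora73a, Snora73b and Snora57, and Snord58b is the only filled point above 0.

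Summed over all members of a class, the H/ACA snoRNAs had 791, 750 and 691 CPM in control and 341, 233 and 297 CPM in Rnmt cKO total RNA, and thus 744 ± 49.9 against 290.2 ± 54.2 CPM (SD, n = 3). The C/D snoRNAs had 455, 418 and 408 CPM in control and 299.6, 213 and 274 CPM in Rnmt cKO libraries, 427 ± 24.98 against 262 ± 44.2 CPM (SD, n = 3). In both classes the highest Rnmt cKO library was below the lowest control library, a separation for which 3 samples a group cannot give an exact permutation p under 0.1. As shares of each library, the sums fell by 61.0% for H/ACA and 38.6% for C/D. These sums were led by a single gene in each class, Snora73b with 42.3 to 48.1% of the H/ACA sum in control libraries and Snord17 with 48.4 to 57.8% of the C/D sum. Without these genes the sums fell by 45.1% and 25.2%.

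**Figure D2:**
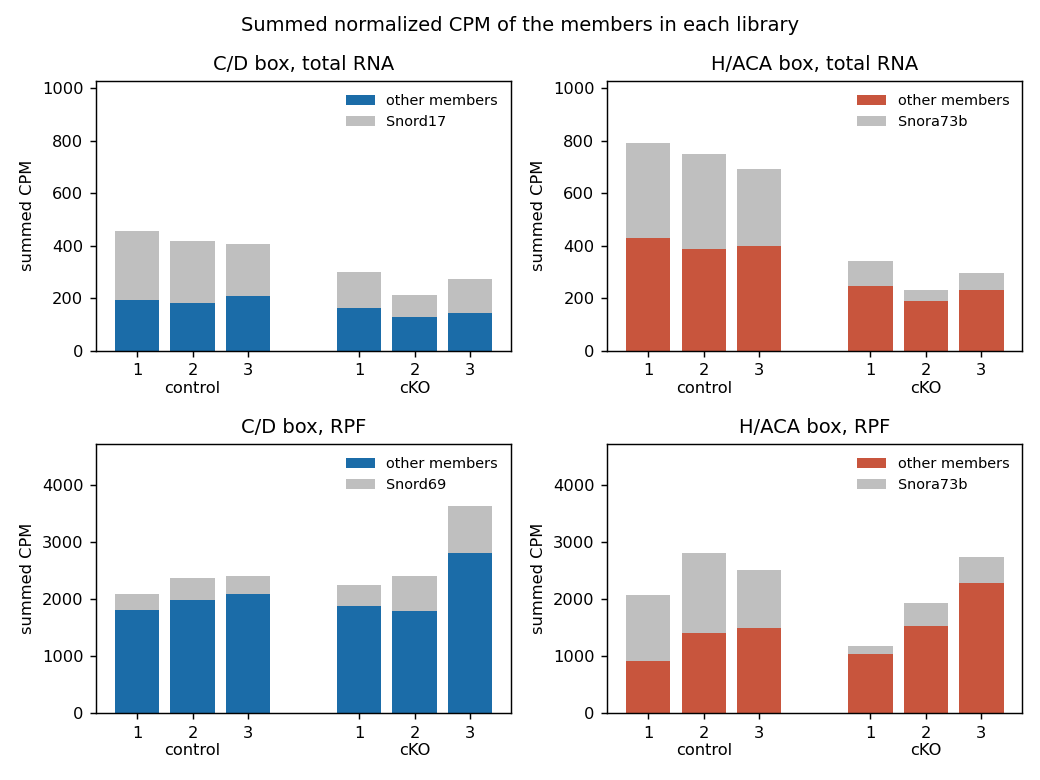
Summed normalized CPM of the members (y axis, from 0) in each library (x axis, replicates 1 to 3 of control and Rnmt cKO), by class and kind of library, with the most abundant member in grey. In total RNA all 3 Rnmt cKO bars are below all 3 control bars in both classes, whereas in RPF the genotypes overlap.

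Among H/ACA members the largest falls were those of both Snora73 copies. Snora73b, a snoRNA of pre-ribosomal RNA cleavage, was the most abundant H/ACA member in total RNA, at 361, 361 and 292.5 CPM in control and 94.1, 42.1 and 65.5 CPM in Rnmt cKO libraries. It fell 5.05-fold (log2 fold change −2.34, SE 0.26, adjusted p = 2.0e-04). Snora73a had 22.9, 29.5 and 18.4 CPM in control and 5.16, 2.73 and 3.93 CPM in Rnmt cKO libraries (log2 fold change −2.60, SE 0.25, adjusted p = 9.7e-05). In neither did the genotypes overlap, which the rule for naming the largest changes required. The copies are 96.6% identical and differ by the substitutions G3A, G54A, A111G, T164C, G203A, T204A and T205A, given as the Snora73a base, the position from its 5′ end and the Snora73b base. Of 181 windows of 25 bases in each, 81 were found in that copy and not in the other, so that the split of reads between the copies is uncertain where reads were short. Snora73a also overlaps an exon of Snhg3.

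Snora57, a guide RNA that lies outside any annotated gene on its strand, had 99.1, 103 and 80.4 CPM in control and 30.0, 20.5 and 26.2 CPM in Rnmt cKO total RNA, a 3.69-fold fall (log2 fold change −1.88, SE 0.15, adjusted p = 4.3e-05). Snora62, within Rpsa, had 17.4, 18.6 and 17.6 CPM in control and 9.91, 6.55 and 9.55 CPM in Rnmt cKO libraries and fell 2.06-fold (log2 fold change −1.04, SE 0.15, adjusted p = 7.7e-04). Snora23, next to Snora73b and Snora57 in control total RNA level per length among H/ACA members, had 89.4, 66.0 and 81.4 CPM in control and 58.2, 48.4 and 61.9 CPM in Rnmt cKO libraries. Its fall was smaller (log2 fold change −0.49, SE 0.13) and did not pass without control replicate 1 (−0.40, adjusted p = 0.0502). The genotypes of these 3 members did not overlap. The other H/ACA members past the threshold were Snora33, Snora17, Snora21, Snora78, Snora41, Snora69 and Snora31, with log2 fold changes from −1.03 to −0.53. Snora31, whose genotypes overlapped, was lost without control replicate 1 or 3 or Rnmt cKO replicate 1 or 2 (adjusted p 0.0892 to 0.118). Among the 7 members that did not pass, values ran from −0.52 for Snora47 to 0.61 for Snora34.

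Among C/D members, Snord104 had the largest fall. It had 15.02, 13.3 and 13.2 CPM in control and 4.82, 4.59 and 4.62 CPM in Rnmt cKO total RNA, 2.96-fold lower (log2 fold change −1.56, SE 0.11, adjusted p = 2.7e-05). Snord17, the most abundant C/D member in total RNA, had 263, 237 and 197 CPM in control and 137, 84.6 and 129 CPM in Rnmt cKO libraries (log2 fold change −0.99, SE 0.18, adjusted p = 0.0023). Snord49b, within a noncoding host, had 11.3, 12.2 and 15.2 CPM in control and 10.1, 6.50 and 6.44 CPM in Rnmt cKO libraries (log2 fold change −0.76, SE 0.20). Snord83b, within Rpl3, had 10.0, 10.3 and 12.9 CPM in control and 7.33, 5.42 and 8.04 CPM in Rnmt cKO libraries (log2 fold change −0.68, SE 0.17). All 4 were separated by genotype, as the rule for naming the largest falls required, Snord49b by the least. Snord100 and Snord49a also fell, with log2 fold changes of −1.24 and −1.08, at average levels under the limit set for naming.

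The C/D members next in abundance to Snord17 had smaller differences. Snord15a, within Rps3, had 33.2, 32.6 and 36.2 CPM in control and 25.4, 23.9 and 29.9 CPM in Rnmt cKO libraries (log2 fold change −0.36, SE 0.10, adjusted p = 0.016). It did not pass without control replicate 3, Rnmt cKO replicate 1 or Rnmt cKO replicate 2 (adjusted p 0.0506 to 0.0677). Snord32a, within Rpl13a, had 15.02, 13.7 and 14.7 CPM in control and 13.2, 8.56 and 12.01 CPM in Rnmt cKO libraries and did not pass (log2 fold change −0.37, SE 0.15, adjusted p = 0.077). On leaving out a replicate its value ran from −0.47 to −0.18. The single rise was that of Snord58b, a low member within Rpl17, with 0.64, 0.58 and 0.32 CPM in control and 1.15, 1.08 and 1.17 CPM in Rnmt cKO libraries (log2 fold change 1.13, SE 0.28). It passed the filter only through the Rnmt cKO libraries, has a 94.3% identical copy, and was not tested when any of these libraries was left out. Without it and the other members that had a copy of at least 90% identity or an exon of another gene over them in the basic gene models, C/D members numbered 10 decreased and 0 increased of 27, and H/ACA members 5 decreased and 0 increased of 8. Snord100, Snord69 and Snora28, which lie inside exons of the comprehensive annotation alone, stayed in these counts.

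**Figure D3:**
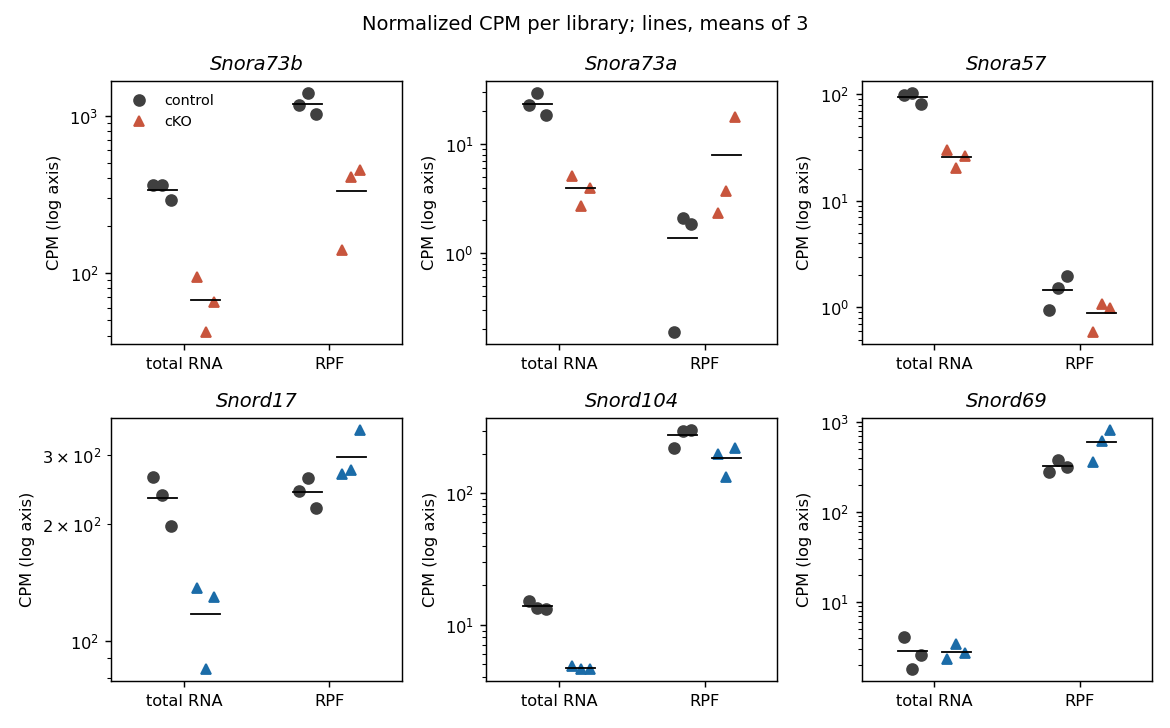
Normalized CPM per library (y axis, log scale) of 6 members in total RNA and RPF, with circles for control, triangles for Rnmt cKO and lines for the means of 3. Snora57 is abundant in total RNA but near 1 CPM in RPF, and Snord69 is near 3 CPM in total RNA but above 280 CPM in every RPF library.

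Because the lysate was cytoplasmic and snoRNAs reside in the nucleolus, RNAs of the nucleus were measured beside them. Of 8 nuclear RNAs, Malat1, Rn7sk, Rmrp and Rpph1 fell and Firre rose in total RNA, and none was at 0. Their summed level was 41840, 42690 and 38150 CPM in control and 30040, 25310 and 30630 CPM in Rnmt cKO libraries, lower in each Rnmt cKO library than in any control. The most abundant of them was Rn7sk, and Malat1 had a log2 fold change of −0.84 (SE 0.11). Reads on no annotated exon of the sense strand moved the other way, with 5.34 to 5.997% of all reads in control and 7.24 to 8.21% in Rnmt cKO total RNA. This share includes reads on exons of the opposite strand. The part of nuclear RNA in the lysate in the snoRNA result was not tested.

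The snoRNAs were set beside their hosts, taken as the gene on the same strand whose span contains the snoRNA (where there were several, the one with most total RNA counts). Of the 60 members 16 lay in ribosomal protein genes, 33 in other protein-coding genes, 8 in noncoding genes and 3 in no gene. In total RNA, members within ribosomal protein genes numbered 7 decreased and 1 increased of 14, within other protein-coding genes 7 and 0 of 23, within noncoding genes 5 and 0 of 7, and without a host 3 and 0 of 3, beside 28.0% decreased and 26.3% increased of all genes. The share decreased within other protein-coding genes, 30.4%, was close to that of all genes. It includes both Snora73 copies, placed under Rcc1 because it had more counts, although the noncoding gene Snhg3 also spans them. The counts for other protein-coding and noncoding hosts depend on this choice. Among the 44 members with a tested host, snoRNA and host had the same sign of change in 35, and 15 pairs were decreased together. Spearman's rho was 0.48 over the 44 members of 36 hosts and 0.61 without both Snora73 copies, and members of 1 host share a transcript while all values come from the same 6 libraries. With 1 value per host, rho was 0.52 over 36 hosts.

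Ribosomal protein hosts fell further than the snoRNAs they contain. For all 14 members the host was decreased, at a median log2 change of −1.01 for the host and −0.45 for the snoRNA, and the snoRNA was the lower of the pair in 1 of the 14. In contrast, 7 members had a host that rose, and 0 of these 7 members rose with it. Wdr43 had a log2 fold change of 1.58 beside 0.08 for its member Snord53, and Nop56, a core protein of C/D particles, had 1.07 beside 0.14 for Snord110. Nop58, another core protein, had 0.40 beside 0.23 for Snord11 and 0.33 for Snord70, and Ncl (nucleolin) had 0.73 beside 0.38 for Snord82. Eif5, a translation initiation factor, had 0.72 beside 0.02 for Snora28, and Gnl3 (nucleostemin) had 0.39 beside 0.0016 for Snord69.

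Among the hosts with most members, the noncoding gene 2410006H16Rik fell (log2 fold change −0.74, SE 0.07), and of its members Snord49a and Snord49b fell while Snord65 had −0.46 (SE 0.18, adjusted p = 0.061). Snord49a had 6.68, 7.46 and 8.95 CPM in control and 4.55, 3.10 and 3.37 CPM in Rnmt cKO libraries. Rpl13a had a log2 fold change of −1.01 (SE 0.13), and its members Snord32a, Snord34 and Snord35a had −0.37, −0.05 and −0.54, of which 0 passed by edgeR's test. Snord35a passed without control replicate 2 or Rnmt cKO replicate 1 (adjusted p = 0.0493 and 0.0315), Snord65 without Rnmt cKO replicate 1 (0.0384), and all but Snord34 with no filter. Rps12 had −1.18 (SE 0.09), and both its members fell, Snora33 with −1.03 (SE 0.12) and Snord100 with −1.24 (SE 0.19). Rcc1, a chromatin-bound exchange factor, had 0.10 (SE 0.06) and did not pass, whereas both Snora73 copies within it fell. Snhg3, whose span also contains both copies, had 41.4, 39.6 and 43.8 CPM in control and 12.2, 11.7 and 9.42 CPM in Rnmt cKO libraries (log2 fold change −1.92, SE 0.11, adjusted p = 1.4e-05).

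A list of 31 genes held the core proteins of snoRNA particles and factors for their assembly, for the cap and transport, and for trimming, debranching and decay. In total RNA 19 of the 31 mRNAs rose and 1 fell, with a median log2 fold change of 0.33, and in RPF 9 rose and 4 fell, beside 26.3% up and 28.0% down of all genes in total RNA and 14.1% up and 15.7% down in RPF. These rises are in share of the library, not per cell. Among the C/D core proteins, Nop56 had 212, 207 and 213 CPM in control and 433, 444 and 450.4 CPM in Rnmt cKO total RNA (log2 fold change 1.07, SE 0.05). Nop58 and Snu13 also rose, with 0.40 (SE 0.06) and 0.24 (SE 0.08), and fibrillarin (Fbl) had 0.40 (SE 0.24) and did not pass. Among the H/ACA core proteins, Gar1 (1.37, SE 0.34) and Nhp2 (0.45, SE 0.08) rose, and dyskerin (Dkc1) with 0.13 (SE 0.05) and Nop10 with −0.14 (SE 0.07) did not pass. For Gar1 the highest control library had 27.3 CPM and the lowest Rnmt cKO library 28.8 CPM, a narrow gap. In RPF, Nop56 and Gar1 rose (0.47, SE 0.08 and 0.24, SE 0.06) and Fbl fell (−0.34). Of 10 assembly factors 6 rose and 1 fell in total RNA, of 4 cap and transport factors 3 rose, and of 9 genes for trimming, debranching and decay 5 rose. In RPF 4 assembly factors and 1 cap and transport factor rose and 0 fell. Of the genes for trimming, debranching and decay 2 rose and 3 fell in RPF. The RPF to total RNA ratio rose for 1 of the 31 and fell for 8, beside 3.24% up and 6.57% down of all genes.

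In RPF libraries the classes behaved differently from total RNA. Of 39 C/D members 2 were decreased and 9 increased, and of 17 H/ACA members 1 was decreased and 0 increased, by edgeR's quasi-likelihood test. Over all 11428 genes tested 15.7% were decreased and 14.1% increased. Among the C/D rises, Snord70 and Snord92 were above the filter level in 4 RPF libraries, all Rnmt cKO libraries among them. In control RPF Snord70 had 0.47, 1.06 and 0.86 CPM and Snord92 0.47, 2.56 and 0.98 CPM. Their tests thus rest on a filter passed mainly through Rnmt cKO libraries. Snord19, Snord42b, Snord66 and Snord92, also among the rises, were members through their RPF level alone. The median log2 fold change was 0.44 for C/D and 0.41 for H/ACA members, beside 0.0080 for all genes. At an unadjusted p under 0.05, 4 H/ACA members were higher and 2 lower and 14 C/D members higher and 3 lower, beside 2340 genes higher and 2440 lower. Other tools called 0 H/ACA members increased (DESeq2) and 4 (edgeR's exact test), beside 1467 and 1534 of 11428 genes. With no filter on low counts 22 C/D and 10 H/ACA members were increased, beside 1867 of 26748 genes. With the replicate number as a block 18 C/D and 7 H/ACA members were increased, beside 1596 of 11428 genes. Not every same-numbered pair of control and Rnmt cKO RPF libraries deviated together (r 0.30, −0.11 and 0.13). The counts also depended on single libraries. The 9 rises among C/D members became 2 when control replicate 1 was left out, 6 for control replicate 2 or 3, 4 for Rnmt cKO replicate 2, and 5 for Rnmt cKO replicate 3. The 2 falls became 1 when control replicate 3 or Rnmt cKO replicate 1 or 2 was left out. H/ACA members had 3 rises when Rnmt cKO replicate 1 was left out, 2 for control replicate 3 and 1 for control replicate 2, and 2 falls for Rnmt cKO replicate 1 or 3. Over all genes the 1612 rises became 1123, 1269 and 1287 without control replicate 1, 2 or 3. They became 1128, 1085 and 1414 without Rnmt cKO replicate 1, 2 or 3. The 1796 falls over all genes became 1264 to 1526 in these fits. Rnmt cKO replicate 3 had the fewest counts of the 12 libraries and the highest share of reads on no annotated exon of the sense strand in RPF (6.19%, beside 2.08 to 3.81% in the others). Without this library the H/ACA median was 0.0026. Over the fits that left out a replicate, the median ran from 0.0026 to 0.74 for H/ACA and from 0.29 to 0.62 for C/D members.

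Summed RPF levels overlapped between genotypes in both classes. C/D members had 2100, 2369 and 2413 CPM in control and 2251, 2410 and 3636 CPM in Rnmt cKO libraries, 2294 ± 169 against 2765 ± 758 CPM (SD, n = 3). H/ACA members had 2074, 2803 and 2507 CPM in control and 1184, 1931 and 2735 CPM in Rnmt cKO libraries, 2462 ± 367 against 1950 ± 776 CPM (SD, n = 3). The H/ACA mean was lower by 20.8% with Snora73b and higher by 27.3% without it.

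Snora73b was the H/ACA member that fell in RPF, where it was also the most abundant, at 1164, 1390 and 1018 CPM in control and 140, 407 and 450.1 CPM in Rnmt cKO libraries (log2 fold change −1.84, SE 0.37, adjusted p = 0.0073). Snora31, within Tpt1, had 211, 260.2 and 344 CPM in control and 324, 397.5 and 526 CPM in Rnmt cKO RPF, with overlap, and did not pass (log2 fold change 0.61, SE 0.21, adjusted p = 0.056), although it passed without control replicate 3 or Rnmt cKO replicate 1 (adjusted p = 0.0245 and 0.0352). Snora33, within Rps12, had 124, 303 and 215 CPM in control and 111, 294 and 371 CPM in Rnmt cKO RPF, spread over the same range in both genotypes (log2 fold change 0.27, SE 0.43).

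Among C/D members, Snord49b and Snord104 fell in RPF as they did in total RNA. Snord49b had 382, 333 and 389.6 CPM in control and 211, 216.5 and 283.5 CPM in Rnmt cKO RPF (log2 fold change −0.64, SE 0.12, adjusted p = 0.0051). Snord104 had 223, 301 and 306 CPM in control and 200.2, 134 and 223 CPM in Rnmt cKO RPF (log2 fold change −0.58, SE 0.19, adjusted p = 0.048), with the highest Rnmt cKO library next to the lowest control. The call for Snord104 was lost without control replicate 2 or 3 or Rnmt cKO replicate 1 or 2, with TMM factors from protein-coding genes or none, with DESeq2 and with counts of both strands (adjusted p 0.0512 to 0.127). Its log2 fold change was −0.38 without Rnmt cKO replicate 2.

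Most of the rises in RPF were in members of lower level. Snord66, within Eif4g1, had 2.16, 3.16 and 6.50 CPM in control and 8.19, 11.5 and 18.9 CPM in Rnmt cKO RPF (log2 fold change 1.68, SE 0.44, adjusted p = 0.022). Snord42b, within Rpl23a, had 14.6, 32.3 and 26.5 CPM in control and 35.9, 59.4 and 112 CPM in Rnmt cKO RPF (log2 fold change 1.49, SE 0.42, adjusted p = 0.028). Snord8, within Chd8, had 4.98, 10.2 and 9.81 CPM in control and 15.2, 14.7 and 39.1 CPM in Rnmt cKO RPF (log2 fold change 1.43, SE 0.43, adjusted p = 0.037). Snord71, within Ap1g1, had 17.1, 17.6 and 17.8 CPM in control and 24.8, 26.9 and 36.9 CPM in Rnmt cKO RPF (log2 fold change 0.74, SE 0.15, adjusted p = 0.0091). None of the 4 overlapped between genotypes, which the rule for naming them required, and Rnmt cKO replicate 3 was the highest library in each. The calls for Snord66 and Snord42b were lost without control replicate 1, and each also without 2 other libraries, and that for Snord8 without any 1 control or Rnmt cKO replicate 3, while Snord71 passed with each library left out. Without Rnmt cKO replicate 3 the log2 fold change of Snord8 was 0.865. Snord69, the most abundant C/D member in RPF, had 280.2, 379 and 318 CPM in control and 359.8, 608 and 818 CPM in Rnmt cKO RPF, with overlap, and rose (log2 fold change 0.87, SE 0.26, adjusted p = 0.035), a call lost without any 1 control or Rnmt cKO replicate 2 or 3. Its log2 fold change was 0.58 without Rnmt cKO replicate 3. Snord17, also among the most abundant in RPF, had 243, 261 and 220.0 CPM in control and 268, 274 and 349 CPM in Rnmt cKO RPF and did not pass (log2 fold change 0.30, SE 0.11, adjusted p = 0.076), although it passed with DESeq2, without TMM and with no filter (adjusted p 0.0185 to 0.0472). On leaving out a replicate its value ran from 0.17 to 0.37.

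In RPF, of 52 members with a tested host the sign was the same in 25, and Spearman's rho was 0.23. For the 15 members within ribosomal protein genes the host median was −0.14 and the snoRNA median 0.27.

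The RPF to total RNA ratio asks whether the genotype difference was the same in both kinds of library. It differed for 7 of 43 members by the interaction term of edgeR's quasi-likelihood test, always toward a higher ratio in Rnmt cKO cells. Of 26 C/D members 4 rose and 0 fell, and of 17 H/ACA members 3 rose and 0 fell. Over all 10668 genes tested 3.24% rose and 6.57% fell. At an unadjusted p under 0.05, 11 C/D and 10 H/ACA members were higher and 0 lower, beside 1268 genes higher and 1359 lower, and DESeq2 called 7 and 4 higher and 0 lower. The median log2 change of the ratio was 0.81 for C/D and 1.18 for H/ACA members, beside 0.035 for all genes. On leaving out a replicate the medians ran from 0.515 to 0.904 for C/D and from 0.839 to 1.456 for H/ACA members. Nuclear RNAs also had higher ratios, with 3 of 6 tested called up (Malat1 1.06, Rmrp 0.74 and Rpph1 0.95) and 0 down, and their part in the snoRNA result was not tested. Total RNA and RPF libraries of 1 number and genotype deviated together, and with that number as a block 7 C/D and 5 H/ACA members rose. When control replicate 1 was left out the C/D count became 2 and the H/ACA count 1, when control replicate 2 was left out 1 and 2, and when Rnmt cKO replicate 1 was left out the H/ACA count became 5. Leaving out Rnmt cKO replicate 2 or 3 gave 2 H/ACA members. Over all genes the main fit had 346 rises, beside 125, 122 and 227 without control replicate 1, 2 or 3. There were 136, 173 and 367 without Rnmt cKO replicate 1, 2 or 3, of 10493 to 10542 genes tested in these fits. DESeq2 gave 392 and the block 426 of 10668 genes.

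**Figure D4:**
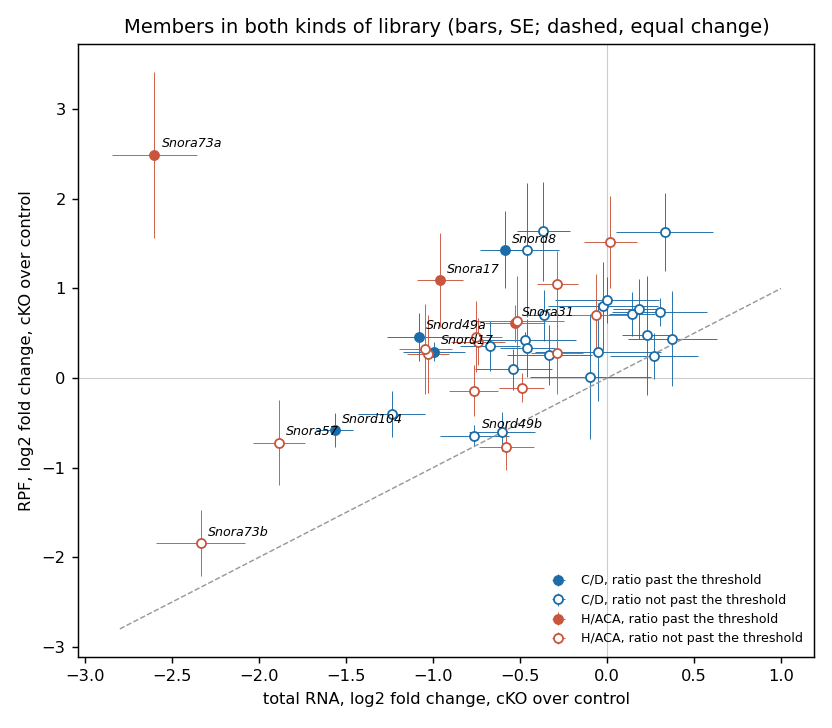
Log2 fold change in RPF (y axis) against that in total RNA (x axis) for the 43 members in both kinds of library, with bars for the SE, a dashed line for equal change and filled points where the ratio passed the threshold. Nearly every member lies above the dashed line, and Snora73a stands apart with −2.60 in total RNA and 2.49 in RPF.

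Of the 43 members 41 had a higher ratio in Rnmt cKO cells, beside 5826 of 10668 genes. Among C/D members the largest rises past the threshold were those of Snord8 (log2 2.01, SE 0.50, adjusted p = 0.023) and Snord49a (1.55, SE 0.40, adjusted p = 0.027). Snord49a had 69.7, 61.6 and 119 CPM in control and 115, 84.2 and 149 CPM in Rnmt cKO RPF, with overlap, and did not pass in RPF alone. Among H/ACA members they were those of Snora73a (4.99, SE 0.94, adjusted p = 0.0047) and Snora17 (2.02, SE 0.49, adjusted p = 0.021). Both have a near copy, Snora73b for Snora73a (96.6% identity) and Gm25617 for Snora17 (91.7%), and only uniquely aligned reads were counted. Without members that had such a copy or an exon of another gene over them, 1 of 8 H/ACA members rose, beside 3.24% of all genes. The part of the copies in these ratios was not tested. Snora73a had only 0.19, 2.11 and 1.84 CPM in control and 2.34, 3.71 and 17.7 CPM in Rnmt cKO RPF, so that its ratio rests on few fragments and on Rnmt cKO replicate 3 most of all. It passed with each library pair left out (3.91 to 5.70), while Snord8 was lost without any 1 control, Snord49a without control replicate 1 or 2 or Rnmt cKO replicate 1 or 3, and Snora17 without control replicate 1 or 2 or Rnmt cKO replicate 2 or 3. For Snora73b the ratio did not pass (0.49, SE 0.49), but was 1.17 (adjusted p = 0.0278) with Rnmt cKO replicate 1 left out and 0.057 with replicate 2 left out.

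How far a snoRNA was recovered in RPF also differed among members before any comparison of genotypes. Because 13 C/D members were chosen through their RPF counts alone, the levels were compared over the members that passed in both kinds of library. In controls the RPF level was a median of 6.43 times the total RNA level for these 26 C/D members (median log2 ratio of CPM 2.68) and 3.35 times for 17 H/ACA members (1.75), beside a median log2 ratio of 0.18 over 10668 genes. The RPF level was the higher for 23 of the 26 C/D and 13 of the 17 H/ACA members. The ratio was highest for Snord69, at 115, and Snord55, at 88.6. It was lowest for Snora57, with 0.94, 1.51 and 1.96 CPM in control RPF beside a mean of 94.05 CPM in control total RNA, a ratio of 0.0156. Per kilobase of length, the highest control levels in total RNA were those of Snora73b (1650 CPM per kb), Snord17 (977) and Snora57 (636), and in RPF those of Snora73b (5810), Snord49b (5116) and Snord69 (4069).

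Both snoRNA genes left out by the rule rose in total RNA and in RPF. Snord118 (U8) and Snord13, which are transcribed from their own promoters and receive a cap, had log2 fold changes of 1.64 (SE 0.09) and 2.02 (SE 0.12) in total RNA and 3.68 (SE 0.61) and 2.92 (SE 0.43) in RPF. Snord118 had 66.0, 56.5 and 54.7 CPM in control and 181, 171 and 199 CPM in Rnmt cKO total RNA. Of 47 members in total RNA 1 rose and 35 had a value below 0, while 26.3% of all 11519 genes rose and 5798 were below 0. In RPF 45 of 56 members had a value above 0, beside 5796 of 11428 genes.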

How the data were processed

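Per the labels and the study's methods, libraries were made with the Illumina TruSeq Ribo Profile kit, read 2 was used, and adapters (cutadapt) and ribosomal RNA and tRNA reads (Bowtie) were removed. Reads were aligned to mm10 (GENCODE vM12 basic) with STAR 2.5.2b, and the authors deposited raw counts of uniquely aligned reads per gene. Only counts of the sense strand were used. Rows that name no gene (unmapped, multimapping, unassigned and ambiguous reads, 41.1 to 70.4% of all reads) were left out of library sizes and tests. A deposited table of the authors' normalized values, fold changes and p-values was not used.

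Symbols, positions, biotypes and sequences came from GENCODE vM21 of the same build, which held 49326 of 49585 genes. For each kind of library, genes with CPM above 1 in at least 3 of 6 libraries were scaled by TMM and tested with edgeR 4.0.16 in R 4.3.3 (quasi-likelihood test, Benjamini-Hochberg adjusted p under 0.05 over all genes, SE taken as the log2 fold change over the root of F), and the ratio by the interaction over 12 libraries. CPM printed are TMM-normalized. The members, lists and tests were chosen with earlier results of these data known. Members named are, per class, the 4 largest changes each way past the threshold without overlap between genotypes at an average log2 CPM of at least 3, the 3 most abundant, those of the 4 hosts with most members (ties by summed CPM), and the 2 largest changes of the ratio each way. Others were named after their values were seen. Same-numbered total RNA and RPF libraries of 1 genotype correlated in their deviations (r 0.11 to 0.37), so the ratio was also fitted with the number as a block. For control and Rnmt cKO libraries not every same-numbered pair did so (r −0.49 to 0.30). Nothing in the labels says that samples came from separate animals, so p-values measure the spread between these samples. Counts do not separate duplicate reads, and SDs and SEs cover the spread between libraries. The fits were also run on simulated data, with no outcome reported here. Alternatives were library size without TMM, TMM from protein-coding genes, DESeq2 1.42.0, edgeR's exact test, no filter, at least 10 counts in every library, both strands, a replicate block and each replicate left out. One marker gene and one member sequence are not reported here.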

Additional observations from a re-analysis of the deposited data

Results flagged for a closer look

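For 7 members the genotype effect differed between total RNA and RPF by the interaction test, as a log2 change of the ratio of 0.98 for Snord104, 1.14 for Snora31, 1.29 for Snord17, 1.55 for Snord49a, 2.01 for Snord8, 2.02 for Snora17 and 4.99 for Snora73a. Of these, Snord17 and Snora73a passed the threshold with each library pair left out. Snord104 fell in both kinds of library, by less in RPF. Snord17, Snord49a, Snora31, Snora17 and Snora73a fell in total RNA and did not pass in RPF, and Snord8 fell in total RNA and rose in RPF. The call for Snora31 in total RNA was lost in 4 of the 6 fits that left out a library. In RPF Snord17 passed with DESeq2, without TMM and with no filter. Snord49a and Snora17 passed there with no filter, with the replicate block and without control replicate 3. Snora31 passed without TMM, with the exact test, with no filter, with the block and without control replicate 3 or Rnmt cKO replicate 1. For Snora73a the RPF log2 fold change was 2.49 (SE 0.92, adjusted p = 0.075 by edgeR's quasi-likelihood test), and 1.23 to 2.965 on leaving out a replicate. It passed with the exact test, with no filter and with the block (adjusted p = 0.0368, 4.1e-09 and 0.022).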

How the results depend on the processing

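In total RNA the class medians stayed below 0 in each setting run, with 7 to 11 C/D and 9 to 13 H/ACA members decreased when a replicate was left out, and medians from −0.41 to −0.23 and from −0.72 to −0.49. The single C/D rise ranged from 0 to 1 on leaving out a replicate and was 0 with DESeq2, with at least 10 counts in every library and without near copies. With both strands 10 of 17 H/ACA members fell, and Snora73a and Snora73b were not tested. The C/D median was −0.11 with no filter, and without near copies 5 H/ACA members fell. In RPF, leaving out a replicate gave 1 to 2 C/D falls, 2 to 11 C/D rises, 1 to 2 H/ACA falls and 0 to 3 H/ACA rises. C/D falls numbered 1 without TMM, with TMM from protein-coding genes and with both strands, and 5 with no filter, where C/D rises numbered 22. H/ACA rises numbered 2 without TMM, 4 with the exact test and 10 with no filter, and H/ACA falls 2 with the exact test and with no filter, and 0 with both strands and without near copies. For the ratio, C/D rises numbered 7 with DESeq2 and with no filter and 1 to 4 on leaving out a replicate, and H/ACA rises 1 without near copies and 1 to 5. Without the most abundant member the sums changed by −25.2% (C/D, total RNA), −45.1% (H/ACA, total RNA), 27.3% (H/ACA, RPF, reversed from −20.8%) and 10.2% (C/D, RPF, from 20.5%), by the construction of these sums. The cause of the other differences was not tested. Over all genes, leaving out a replicate gave 2585 to 3151 falls in total RNA. It gave 1085 to 1414 rises and 1264 to 1526 falls in RPF, and 122 to 367 rises of the ratio.

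Same-numbered control and Rnmt cKO libraries shared only a number (r −0.24, −0.18 and −0.49 in total RNA, 0.30, −0.11 and 0.13 in RPF). With the replicate block, 9 C/D and 12 H/ACA members fell in total RNA, and in RPF 18 C/D and 7 H/ACA members rose and 3 and 2 fell. For the ratio the block gave 7 C/D and 5 H/ACA rises. Over all genes it gave 2751 falls in total RNA, 1596 rises and 1636 falls in RPF, and 426 rises of the ratio.

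Among named members, values that changed sign did not pass in any setting where they did so. For Snord69 in total RNA they were −0.00107 with the exact test, −0.00795 with no filter and −0.00151 with both strands. On leaving out a replicate, total RNA values ran from −0.24 to 0.36 for Snord69 and −0.37 to 0.18 for Snord34. RPF values ran from −0.28 to 0.74 for Snora62, −0.28 to 0.042 for Snora23, −0.065 to 0.64 for Snora33, −0.43 to 0.65 for Snord34 and −0.082 to 0.22 for Snord35a. Ratios ran from −0.13 to 0.42 for Snord49b and −0.43 to 0.74 for Snord34. Near-copy members were left out, and class sums taken without their leading gene, as settings chosen after seeing the data. RPF libraries had fewer counts than total RNA libraries, which limits low members such as Snora57 and Snora73a.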

Other observations

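Snora57 stood apart in where its counts lay. With 1491 to 1939 counts per control total RNA library and 10 to 16 per control RPF library, it had a ratio of 0.0156 in controls, whereas Snora23, also H/ACA and close to it in total RNA CPM, had 149, 158 and 194 CPM in control RPF. Snora73a and Snora17 had RPF to total RNA ratios of 0.0584 and 0.113, and Snora36b had at most 1 count in any RPF library.

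The genes of biotype snoRNA outside the named classes numbered 18 decreased and 2 increased of 59 tested in total RNA (median log2 fold change −0.15), 0 decreased and 15 increased of 58 in RPF (0.75), and 0 decreased and 7 increased of 52 for the ratio (0.95), by edgeR's quasi-likelihood test. The shares of all genes that fell and rose were 28.0 and 26.3% for total RNA, 15.7 and 14.1% for RPF, and 6.57 and 3.24% for the ratio.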
